A study of Mus musculus with 21 samples.

Results

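The broad domains of H3K9me2 and of LaminB1 were compared within WT fibro-adipogenic progenitors (FAPs), the mesenchymal cells of skeletal muscle that support repair and can give rise to fat and fibrous tissue. The members were every autosomal domain in the 3 WT H3K9me2 libraries (1107, 1022 and 830 domains in replicates 1, 2 and 3) and in the 1 WT LaminB1 library (985 domains). These were 3944 of the 8221 domains in all lists and on all chromosomes. The autosomal lists of the other genotype held 3762 domains. Both domain types were mapped by chromatin immunoprecipitation and sequencing.

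H3K9me2 is dimethylation of lysine 9 of histone H3, written in mammals mainly by the enzymes Ehmt1 and Ehmt2, and it is a mark of repressed chromatin. LaminB1 is a filament protein of the nuclear lamina, which lines the inner nuclear membrane. Sequence held at the lamina forms long domains that are known to be poor in genes and low in transcription, and in many cell types such domains carry H3K9me2. In skeletal muscle, tethering of chromatin at the nuclear rim is one way by which genes of another lineage are held silent.

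The mice of both genotypes carried floxed Prdm16 alleles. Prdm16 mice (Prdm16Flox/Flox::PdgfrαCre-ERT/+) also carried a tamoxifen-inducible Cre driven by Pdgfrα, a FAP receptor, and WT mice (Prdm16Flox/Flox::Pdgfrα+/+) had no Cre. Adult mice of both groups had 5 daily tamoxifen injections, a rest of 7 days and cardiotoxin injury of the muscle, and FAPs sorted 5 days after injury were grown for 4 to 5 days. The WT cells are therefore cultured FAPs of injured, tamoxifen-treated floxed mice. The series holds 21 samples. Nothing in the labels ties a replicate to its own animal or culture, so spreads and p-values cover the difference between these samples only, which may be technical. LaminB1 had 1 WT library and so no replicate error of its own. The read depth behind the domains is unknown.

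The cells' own markers were checked in the 3 WT RNA libraries, which held 10657791, 7053114 and 10284864 counts. The 7 FAP markers summed to 4716, 5181 and 2967 CPM (counts scaled to the library's total) in replicates 1, 2 and 3, with Pdgfra at 802, 940 and 491 CPM. Markers of satellite cells and myoblasts summed to 189, 405 and 399 CPM, those of pericytes and smooth muscle to 170, 265 and 467 CPM. Vcam1 alone gave 136, 344 and 202 CPM of the satellite cell and myoblast sums. Every other marker of that list was highest in replicate 3. Leukocyte markers summed to 4.13 to 5.74 CPM, with Adgre1 and Itgam at 0, and endothelial markers to 3.47 to 6.51 CPM. The interferon-induced gene Ifit3 was at 564 and 21.4 CPM in the Prdm16 RNA libraries and at 478, 759 and 21.8 CPM in the WT ones, so the library labelled WT replicate 3 stood apart from the other WT libraries. The targeted gene Prdm16 was at 10.8 and 14.7 CPM in the Prdm16 RNA libraries and at 16.0, 13.3 and 5.74 CPM in the WT ones, so its RNA did not separate the labels. The shares of genes with RNA are given with and without that library.

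The 3 WT H3K9me2 libraries were not alike. They covered 883, 562 and 776 Mb of the autosomes (35.9%, 22.8% and 31.5%), a mean of 740 ± 163 Mb (SD, n = 3), and LaminB1 covered 647 Mb (26.3%). Shared length over combined length (the Jaccard index) was 0.784 between replicates 1 and 3, 0.567 between 1 and 2 and 0.532 between 2 and 3. WT replicate 2 was nearer to each library labelled Prdm16 (0.660, 0.573 and 0.576 for replicates 1, 2 and 3) than to either WT replicate. The index also depends on how alike the covered lengths are, and the Prdm16 libraries covered 500, 800 and 677 Mb. Nearly all of WT replicate 2 still lay within WT replicate 1, which held 93.0% of its length. Median domain lengths were 378, 354 and 459 kb for H3K9me2 and 348 kb for LaminB1. The longest H3K9me2 domains reached 13.4, 4.62 and 12.8 Mb, and the longest LaminB1 domain 9.0 Mb.

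A few promoters are given from the classes of genes described further on, as single examples. Each runs from 250 bases before to 50 after a start listed for the gene (GRCm38.p6). It is given 5′ to 3′ on the gene's strand, with every CpG in capitals. The stretches of Olfr32, Pdgfra and Pparg lay wholly inside the gene's RefSeq span, so the start used was not the gene's outer end. Fbxw17 (chr13:50417614-50417913, + strand) and Lsamp (chr16:39984114-39984413, + strand) started inside both H3K9me2 and LaminB1. Epha4 (chr1:77515039-77515338, - strand) started inside H3K9me2 alone and Olfr32 (chr2:90142244-90142543, - strand) inside LaminB1 alone. Pdgfra (chr5:75152001-75152300, + strand) and Pparg (chr6:115360894-115361193, + strand) started inside neither.
Fbxw17: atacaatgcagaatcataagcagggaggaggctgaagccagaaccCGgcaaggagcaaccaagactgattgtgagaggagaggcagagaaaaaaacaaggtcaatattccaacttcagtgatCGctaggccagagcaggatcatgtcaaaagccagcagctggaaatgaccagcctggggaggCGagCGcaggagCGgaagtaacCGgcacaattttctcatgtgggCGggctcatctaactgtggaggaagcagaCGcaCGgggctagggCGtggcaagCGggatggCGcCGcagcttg
Lsamp: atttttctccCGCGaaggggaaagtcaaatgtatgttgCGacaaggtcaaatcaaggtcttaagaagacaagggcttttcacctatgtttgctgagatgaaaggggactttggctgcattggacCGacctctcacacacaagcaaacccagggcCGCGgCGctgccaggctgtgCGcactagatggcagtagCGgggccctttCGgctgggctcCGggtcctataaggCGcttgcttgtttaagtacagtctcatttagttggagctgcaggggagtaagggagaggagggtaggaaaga
Epha4: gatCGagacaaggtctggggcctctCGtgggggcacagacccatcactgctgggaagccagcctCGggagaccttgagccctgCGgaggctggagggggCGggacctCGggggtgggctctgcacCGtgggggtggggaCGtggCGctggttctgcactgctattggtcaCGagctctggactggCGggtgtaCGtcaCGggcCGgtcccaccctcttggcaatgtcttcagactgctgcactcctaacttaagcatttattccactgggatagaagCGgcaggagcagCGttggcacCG
Olfr32: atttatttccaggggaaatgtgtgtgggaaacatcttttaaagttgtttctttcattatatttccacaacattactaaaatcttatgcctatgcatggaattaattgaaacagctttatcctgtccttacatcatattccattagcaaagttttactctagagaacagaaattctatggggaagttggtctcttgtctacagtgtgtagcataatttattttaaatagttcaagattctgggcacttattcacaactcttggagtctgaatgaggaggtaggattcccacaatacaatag
Pdgfra: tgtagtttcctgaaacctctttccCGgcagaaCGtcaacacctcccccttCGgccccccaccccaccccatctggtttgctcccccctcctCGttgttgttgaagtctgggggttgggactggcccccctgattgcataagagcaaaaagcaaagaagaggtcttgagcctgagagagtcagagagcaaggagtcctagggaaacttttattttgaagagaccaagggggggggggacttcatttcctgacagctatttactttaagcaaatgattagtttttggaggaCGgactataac
Pparg: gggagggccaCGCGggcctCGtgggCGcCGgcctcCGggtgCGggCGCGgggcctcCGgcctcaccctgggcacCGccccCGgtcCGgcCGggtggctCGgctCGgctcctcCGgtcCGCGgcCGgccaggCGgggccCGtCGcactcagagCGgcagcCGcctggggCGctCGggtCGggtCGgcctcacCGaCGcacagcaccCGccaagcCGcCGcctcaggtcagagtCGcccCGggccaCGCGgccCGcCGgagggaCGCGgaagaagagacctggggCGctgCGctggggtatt
These promoters held 13 (Fbxw17), 12 (Lsamp), 17 (Epha4), 0 (Olfr32), 5 (Pdgfra) and 44 (Pparg) CpG dinucleotides. The median was 7 over all 27025 promoters. It was 14 over the 16457 autosomal protein-coding genes with a promoter, the set behind the class medians further on. Each printed count lay outside the quartiles of its gene's class, so these promoters are not typical of the classes. The quartiles were 1 to 8 CpG in both, 2 to 12.5 in H3K9me2 only, 1 to 3 in LaminB1 only and 7 to 27 in neither. The G+C share was 55.3%, 53.0%, 64.0%, 34.0%, 51.0% and 80.3% in the same order of genes. At least 10 CpG were found in 43.9% of all promoters and at least 20 in 26.8%. Lsamp, Epha4 and Olfr32 were chosen after their values were seen.

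Much of the H3K9me2 length lay inside LaminB1 domains, more than placement alone gives in every library. Inside LaminB1 lay 451, 263 and 400 Mb of H3K9me2 in replicates 1, 2 and 3, against an expected 232, 149 and 204 Mb. The expected length is the mean over every placement of one list along each chromosome, worked out from the share of the chromosome that each list covers. The ratios of observed to expected overlap were 1.94, 1.77 and 1.96, a mean of 1.89 ± 0.107 (SD, n = 3). All 3 libraries lay above 1, and the exact two-sided sign-flip test over them gave p = 0.25, the smallest p that 3 libraries allow.

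Seen from H3K9me2, 51.0%, 46.8% and 51.5% of its length was LaminB1, a mean of 49.8 ± 2.60% against an expected 26.3 ± 0.118% (SD, n = 3 each). Seen from LaminB1, 69.7%, 40.7% and 61.8% of its length carried H3K9me2, a mean of 57.4 ± 15% against an expected 30.1 ± 6.55%. The first share varied little between libraries, while the second was lowest in replicate 2, the library that covered the least. Taking each library's domains by score down to the same covered length gave a ratio of 1.98 ± 0.191.

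**Figure D1:**
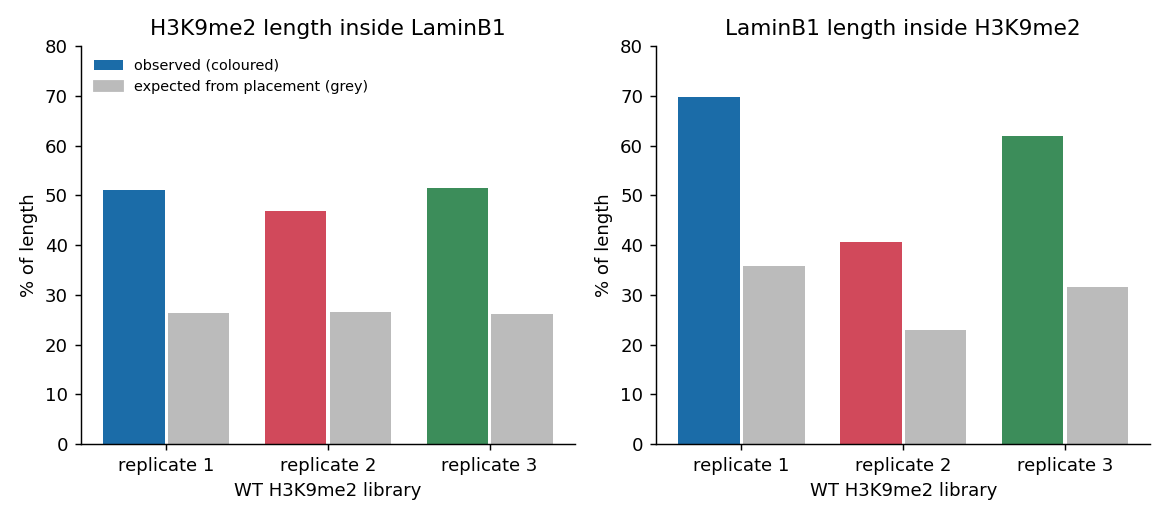
Percent of H3K9me2 length inside LaminB1 (left) and of LaminB1 length inside H3K9me2 (right) for the 3 WT H3K9me2 libraries, beside the share expected from placement on each chromosome (grey). Every coloured bar is above its grey bar, and the right panel spreads more between libraries (40.7% to 69.7%) than the left (46.8% to 51.5%).

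How much of the H3K9me2 lay in LaminB1 depended on which libraries called it. Of the autosomes, 18.6% carried H3K9me2 in all 3 libraries, 14.0% in 2, 6.50% in 1 and 60.9% in none. LaminB1 covered 52.3%, 47.8%, 41.9% and 11.7% of these parts. Split by library, LaminB1 covered 53.5% of the 88.5 Mb that only replicate 1 called, 52.4% of the 271 Mb called by replicates 1 and 3, and 45.6% of the 39.7 Mb that only replicate 3 called. Of the 65.6 Mb called by replicates 1 and 2 it covered 33.6%, so a second library calling did not always go with more LaminB1. It covered 4.88% of the 31.8 Mb that only replicate 2 called, and 6.27% of the 7.32 Mb called by replicates 2 and 3 without replicate 1. Both of these lay below the 11.7% of sequence without H3K9me2. Among the domains of replicate 2, 8.99% of the 89 that touched no domain of replicates 1 and 3 touched LaminB1, against 65.1% of the 730 that touched domains of both. The like shares were 50.6% of 164 and 65.3% of 544 in replicate 1, and 50% of 34 and 66.8% of 578 in replicate 3. By length the order was the other way in these 2 libraries, with 59.1% of the unshared and 51.0% of the fully shared length in LaminB1 in replicate 1, and 54.2% and 51.8% in replicate 3. In replicate 2 it was 4.75% and 50.6%. Unshared domains were shorter, with medians of 190, 171 and 274 kb against 536, 438 and 459 kb.

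Every autosome showed the excess, by unequal amounts. The ratio of observed to expected overlap was above 1 on 19 of 19 autosomes in each of the 3 libraries. It was highest on chromosome 11, at 2.79 ± 0.295 (SD, n = 3), and on chromosome 19, at 2.65 ± 0.471. It was lowest on chromosome 12, at 1.40 ± 0.0756, and on chromosome 7, at 1.5 ± 0.161. On chromosome 11, H3K9me2 covered 82.5% of LaminB1 on average, and on chromosome 7 it covered 34.3%. Over the 19 autosomes the mean ratio went with the share covered by LaminB1 with Spearman's rho of -0.62, and with the share covered by H3K9me2 with -0.29. These are descriptions over chromosomes that share the same libraries, and a ratio has a lower ceiling where coverage is high.

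**Figure D2:**
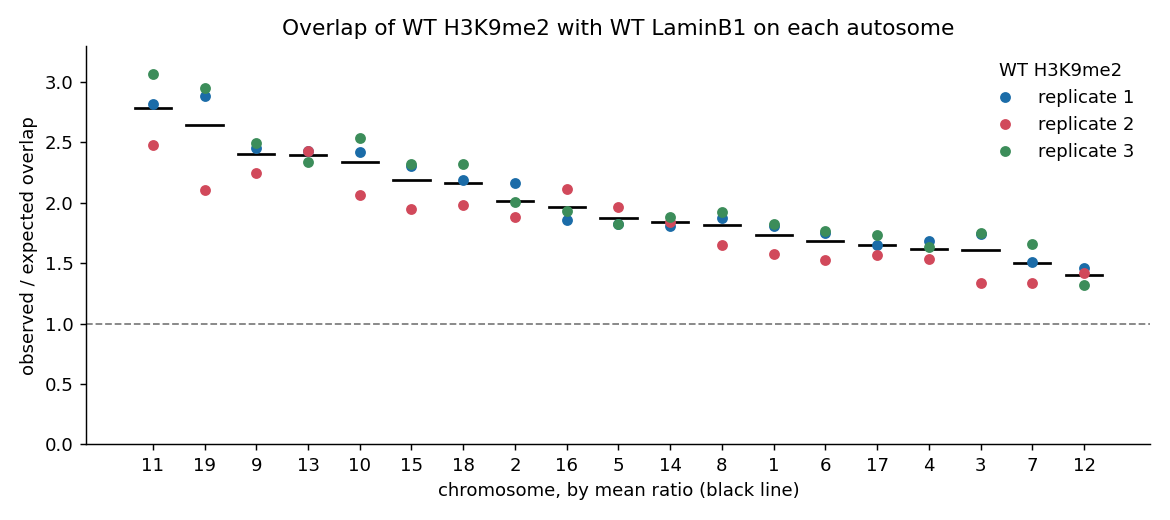
Ratio of observed to expected overlap of WT H3K9me2 with WT LaminB1 on each autosome, ordered by the mean of the 3 libraries (black lines), with 1 point per library. All points lie above the dashed line at 1, from a mean of 2.79 on chromosome 11 to 1.40 on chromosome 12.

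The excess was tied to position on the scale of single domains. When the LaminB1 list was displaced along the chromosomes by 100 kb, in both directions and averaged, the ratio was 1.77 ± 0.128 (SD, n = 3). At 500 kb it was 1.36 ± 0.159, at 1000 kb 1.21 ± 0.132 and at 2000 kb 1.09 ± 0.0688. At 5000 kb it was 0.952 ± 0.0148, below 1 in all 3 libraries. The ratio of replicate 2 was down to 1.18 at 500 kb, where replicates 1 and 3 still had 1.44 and 1.46.

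**Figure D3:**
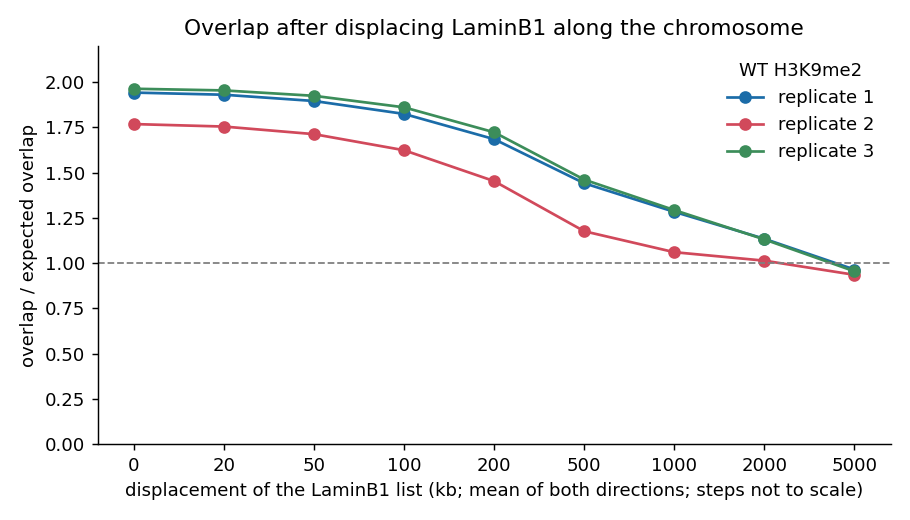
Overlap of WT H3K9me2 with the WT LaminB1 list displaced by 0 to 5000 kb, over the overlap expected from placement, 1 line per H3K9me2 library. The distances on the x axis are not to scale. The lines fall with distance, from 1.77 to 1.96 at no displacement to just under 1 at 5000 kb, and replicate 2 falls earliest.

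Nesting was one-sided: many LaminB1 domains lay wholly inside an H3K9me2 domain, and few H3K9me2 domains lay wholly inside LaminB1. Of the 985 LaminB1 domains, 578, 327 and 478 lay wholly inside 1 H3K9me2 domain of replicates 1, 2 and 3 (58.7%, 33.2% and 48.5%). The mean was 46.8 ± 12.8%, against 17.3 ± 5.98% (SD, n = 3 each) over all positions where a domain of that length could lie on its chromosome. LaminB1 domains that touched no H3K9me2 made up 11.3%, 33.5% and 24.1%, against an expected mean of 52.2%. In all 3 libraries at once, 248 LaminB1 domains (25.2%) lay wholly inside, and 96 (9.75%) touched no H3K9me2 in any. The 248 had a median length of 246 kb, and the 347 that were wholly inside in no library had 492 kb.

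Of the H3K9me2 domains, 59, 75 and 71 lay wholly inside a LaminB1 domain (5.33%, 7.34% and 8.55%). This mean of 7.07 ± 1.63% was below the 13.3 ± 1.16% that placement gave. With at least 0.9 of the domain in LaminB1 counted as inside, the order turned, to 21.6 ± 2.37% against an expected 14.8 ± 1.15%. Fewer H3K9me2 domains than placement gave thus lay wholly in LaminB1, while more lay in it over at least 0.9 of their length. Whether the rest of such a domain lay past a LaminB1 edge or between LaminB1 domains was not measured. Touching no LaminB1 were 41.5%, 44.3% and 33.5% of H3K9me2 domains, against an expected mean of 56.9%.

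Long H3K9me2 domains often held several LaminB1 domains. At least 2 LaminB1 domains were touched by 151, 100 and 133 H3K9me2 domains of replicates 1, 2 and 3. The most in 1 domain was 10, on chromosome 16 from 66021001 to 75633000 in replicate 1 (9.61 Mb, 30.7% of it LaminB1) and from 66021001 to 76137000 in replicate 3 (mm10 coordinates). In replicate 2 no domain touched more than 4. The reverse was rarer: 41, 37 and 36 LaminB1 domains touched at least 2 H3K9me2 domains. H3K9me2 domains that touched LaminB1 had median lengths of 596, 480 and 640 kb, and those that did not 240, 270 and 294 kb, a ratio of 2.15 ± 0.353 (SD, n = 3). A longer domain has more room to touch another list, and with at least 0.5 of the domain in LaminB1 required, the ratio was 1.35 ± 0.152.

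Edges of the 2 domain types lay near each other. The 1970 edges of LaminB1 domains had a median distance of 164, 204 and 260 kb to the nearest H3K9me2 edge in replicates 1, 2 and 3, against 465, 509 and 612 kb over all positions of the autosomes. The ratio of these medians was 0.392 ± 0.0363 (SD, n = 3), below 1 in 3 of 3 libraries (exact two-sided sign-flip p = 0.25, the smallest possible). Within 10 kb of an H3K9me2 edge lay 15.9%, 12.2% and 11.1% of LaminB1 edges, against 1.89%, 1.74% and 1.42% of all positions. The grids of 3 kb and 4 kb on which the domains were given limit how finely these distances can be read. Measured from H3K9me2 edges to LaminB1 edges, the medians were 237, 246 and 210 kb, against 657 kb over all positions.

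Neighbouring edges mostly faced the same way, with H3K9me2 the wider of the pair. An H3K9me2 edge of the same direction lay within 100 kb of 40.8%, 33.9% and 31.8% of LaminB1 edges, and one of the opposite direction within 100 kb of 5.69%, 5.94% and 3.40%. Among the pairs of same direction, H3K9me2 reached further out than LaminB1 in 70.7%, 66.6% and 66.2%. The median outward offset was 10, 9 and 8 kb. At 95 LaminB1 edges (4.82% of 1970), same-direction edges of all 3 H3K9me2 libraries lay within 10 kb.

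Cover by H3K9me2 climbed across the LaminB1 edge over a short distance. It stood at 47.1%, 28.8% and 41.2% of edges 105 kb outside (replicates 1, 2 and 3), and at 76.8%, 51.0% and 62.6% 5 kb inside. It was 82.6%, 57.0% and 68.8% at 55 kb inside and 55.6%, 34.6% and 49.9% at 495 kb inside, where long domains alone still count as inside and the far edge of short ones has been passed. LaminB1 cover across the H3K9me2 edge was lowest just outside, at 10.5%, 14.4% and 14.2% of edges 55 kb outside. It was 42.9%, 41.7% and 48.1% at 105 kb inside.

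**Figure D4:**
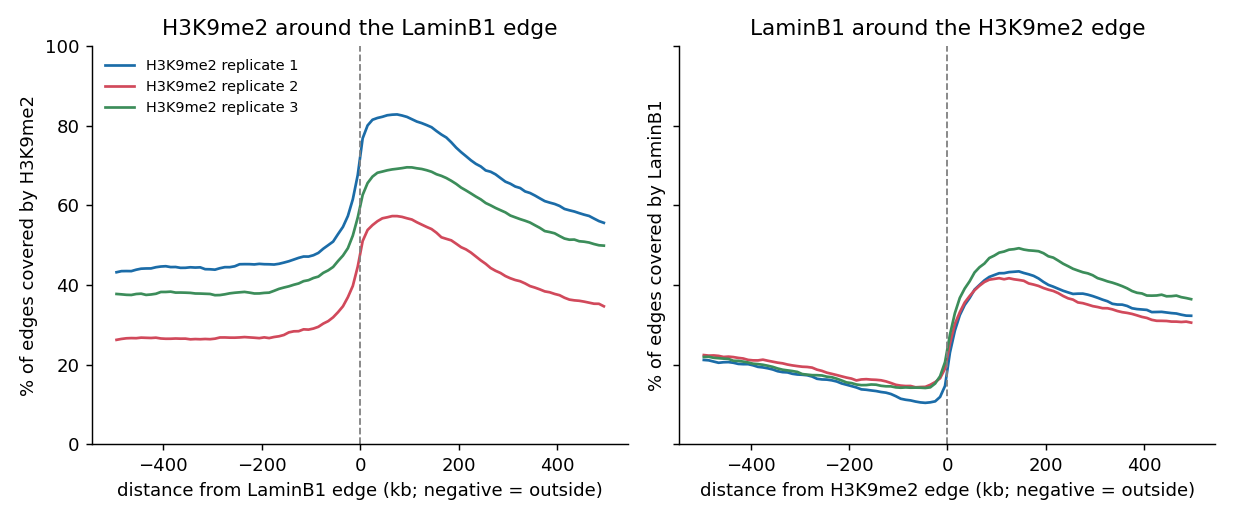
Percent of LaminB1 domain edges at which H3K9me2 covers a position a given distance away (left), and percent of H3K9me2 edges at which LaminB1 does (right), for distances up to 500 kb outside (negative) and inside, 1 line per H3K9me2 library. Both marks step up at the edge of the other, and LaminB1 on the right dips below its distant level just outside H3K9me2.

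Scores followed length within each list. The authors' score per domain, of unstated origin, went with domain length with Spearman's rho of 0.882, 0.809 and 0.865 in H3K9me2 replicates 1, 2 and 3 and of 0.921 in LaminB1. These describe domains within a library, and both values come from the same reads. The share of an H3K9me2 domain covered by LaminB1 went weakly with its score (rho 0.311, 0.265 and 0.143). Among H3K9me2 domains that touched LaminB1, the score went with the highest LaminB1 score it met with rho of 0.217, 0.152 and 0.178.

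LaminB1 domains with the densest score carried the least H3K9me2. The 985 domains were put in 4 groups of like number by score per length, from low to high. H3K9me2 of replicate 1 covered 78.2%, 73.8%, 75.2% and 49.9% of their length, that of replicate 2 37.9%, 42.7%, 46.3% and 37.6%, and that of replicate 3 75.5%, 67.8%, 63.4% and 36.8%. The top group was thus lowest in each library, by little in replicate 2. The share of length without H3K9me2 in any library was 18.5%, 22.9%, 21.0% and 48.1%. The top group also had the most protein-coding genes, 8.67 per Mb against 3.02, 3.26 and 4.86 in the groups from low to high below it. Olfactory and vomeronasal receptors made up 62.1%, 30.2%, 42.0% and 28.8% of the genes, from the lowest group to the top one.

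The longest run under LaminB1 and all 3 H3K9me2 libraries lay on chromosome 14 from 3123001 to 7708000 (mm10, 4.58 Mb). It held 74 protein-coding genes, mostly near-identical predicted genes among which reads may be shared. Of 63 matched to the count table, 0, 0 and 1 reached 1 CPM in WT RNA replicates 1, 2 and 3. The next lay on chromosome 8 from 27312001 to 31028000 (3.72 Mb), with Unc5d, a netrin receptor of axon guidance, and Chrnb3 and Chrna6, subunits of neuronal acetylcholine receptors. Unc5d had 0, 0 and 0.194 CPM, and Chrnb3 and Chrna6 were at 0. On chromosome 16 from 39120001 to 41776000 lay Lsamp, a neuronal adhesion protein, with 0, 0.425 and 0 CPM. On chromosome 11 from 24100001 to 26196000 lay Bcl11a, a zinc-finger repressor of blood and brain, with 0.0938, 0.142 and 0.0972 CPM. The fourth longest, on chromosome 18 from 27656001 to 30260000, touched no protein-coding gene. In all, 610 such runs covered 239 Mb with a median length of 248 kb.

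The longest run of LaminB1 without H3K9me2 in any library lay on chromosome 8 from 96279001 to 101319000 (5.04 Mb). Its 1 protein-coding gene was Cdh8, a neuronal cadherin, at 0, 0.142 and 0.0972 CPM. The run on chromosome 2 from 85659001 to 90188000 held 208 genes, an olfactory receptor cluster of which Olfr1033, with 1.41, 2.13 and 0.681 CPM, was the most seen among its 4 longest genes. A further cluster, on chromosome 17 from 37530001 to 40792000, ended in the sperm-protein genes Crisp1, Crisp2 and Crisp3, each under 0.5 CPM. The run on chromosome 12 from 17940001 to 21072000 held 20 genes, mostly predicted ones. That on chromosome 5 from 125709001 to 128811000 touched 9 genes. Tmem132c and Tmem132d, membrane proteins, were at 0 CPM, and Slc15a4, a lysosomal transporter of histidine and peptides, had 21.6, 8.37 and 10.6 CPM. There were 380 such runs over 176 Mb, with a median length of 148 kb.

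The 5 longest runs of H3K9me2 in all 3 libraries away from LaminB1 touched few genes, most of them with RNA. Of 8 matched genes 6, 6 and 6 reached 1 CPM. In the 5 longest runs under both it was 0, 0 and 1 of 70, and in those of LaminB1 without H3K9me2 4, 3 and 1 of 274. Of all protein-coding genes 58.5% reached 1 CPM (mean of 3 RNA libraries). Of all genes covered by H3K9me2 in 3 libraries away from LaminB1 17.7% did, so these 8 do not stand for such genes at large. On chromosome 4 from 65658001 to 68952000 (3.29 Mb) lay Tlr4, the receptor for bacterial lipopolysaccharide, whose whole body was covered in each library and which had 43.8, 45.4 and 49.7 CPM. Its neighbour Brinp1, an inhibitor of neuronal cell cycle entry, had 19.0, 10.8 and 22.7 CPM, and Astn2, a neuronal migration protein, 0.751, 0.851 and 0.389 CPM. On chromosome 12 from 45308001 to 48453000 lay Nova1, an RNA-binding splicing regulator, with 4.97, 6.81 and 3.69 CPM. On chromosome 3 from 45916001 to 48840000 lay Pabpc4l, of the poly(A)-binding protein family, with 10.2, 21.3 and 8.95 CPM. Naaladl2, on chromosome 3 in the run from 23604001 to 26284000, had 8.91, 6.10 and 3.60 CPM, and Nlgn1, a synaptic adhesion protein in the same run, 0.563, 0.284 and 0.194 CPM. Epha4, an ephrin receptor on chromosome 1 in the run from 75720001 to 77556000, had 2.91, 3.69 and 3.69 CPM. There were 917 such runs over 218 Mb, with a median length of 144 kb.

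Over all genes the same order held: RNA was rarest under LaminB1, with or without H3K9me2, and less rare under H3K9me2 alone. A gene was put in a class where at least 0.5 of its body lay in LaminB1, in H3K9me2 called by at least 2 of the 3 libraries, in both or in neither. Of 20665 autosomal protein-coding genes, 1100 (5.32%) were in both, 920 (4.45%) in H3K9me2 only, 2032 (9.83%) in LaminB1 only and 16613 (80.4%) in neither. The share with at least 1 CPM was 3.75%, 3.56% and 4.32% in both (WT RNA replicates 1, 2 and 3) and 21.8%, 21.9% and 22.1% in H3K9me2 only. It was 3.90%, 4.42% and 3.90% in LaminB1 only, and 70.7%, 70.7% and 70.4% in neither. The mean difference of both minus neither was -66.7 percentage points, and -67.0 without WT RNA replicate 3. Class means were 21.9% in H3K9me2 only, 3.88% in both and 4.07% in LaminB1 only, beside 58.5% of all genes. The spread between RNA libraries was at most 0.391 percentage points (SD, n = 3) in any class. That spread covers the RNA libraries on fixed sets of genes. It does not measure whether classes of genes differ, or the error of the single LaminB1 list. The domains and the RNA came from separate samples, and the 3 RNA libraries were read against the same classes.

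More H3K9me2 libraries went with fewer genes having RNA, away from LaminB1. There the share at 1 CPM or more was 17.7% of genes covered in 3 libraries, 26.5% in 2, 29.3% in 1 and 71.7% in 0 (means of 3 RNA libraries, SD at most 0.759). Without WT RNA replicate 3 these were 17.3%, 26.6%, 29.5% and 71.8%. Under LaminB1 the shares were 2.91%, 5.91%, 4.20% and 4.04% for 3, 2, 1 and 0 libraries, and 2.7%, 5.67%, 4.15% and 4.16% without WT RNA replicate 3. No such order was seen there, and the highest share belonged to 2 libraries.

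The 2 LaminB1 classes differed in gene content. Protein-coding genes lay at 2.72 per Mb in both, 2.31 in H3K9me2 only, 8.36 in LaminB1 only and 11.7 in neither. Median gene spans were 12.1, 18.5, 1.97 and 19.8 kb in that order of classes. Olfactory and vomeronasal receptors, short genes of chemical sensing in large clusters, made up 1033 of the 2032 genes in LaminB1 only (50.8%) and 174 of the 1100 in both (15.8%). Without them the share at 1 CPM or more was 4.63 ± 0.467% in both, 24.4 ± 0.187% in H3K9me2 only, 8.38 ± 0.518% in LaminB1 only and 71.2% in neither (SD, n = 3). Without WT RNA replicate 3 these were 4.37%, 24.3%, 8.53% and 71.3%. Leaving out the receptors, the share was higher in LaminB1 only than in both in each RNA library (8.08%, 8.98% and 8.08% against 4.48%, 4.26% and 5.16%). Whether the classes differ beyond the clustering of their genes was not tested. LaminB1 only also held 35 genes of the protocadherin clusters, whose reads cannot be assigned with certainty. Promoters had a median of 3 CpG in both, 4 in H3K9me2 only, 1 in LaminB1 only and 18 in neither. The matching G+C medians were 48.7%, 48.7%, 38% and 59.0%, over 81.0% to 85.4% of the genes of a class.

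**Figure D5:**
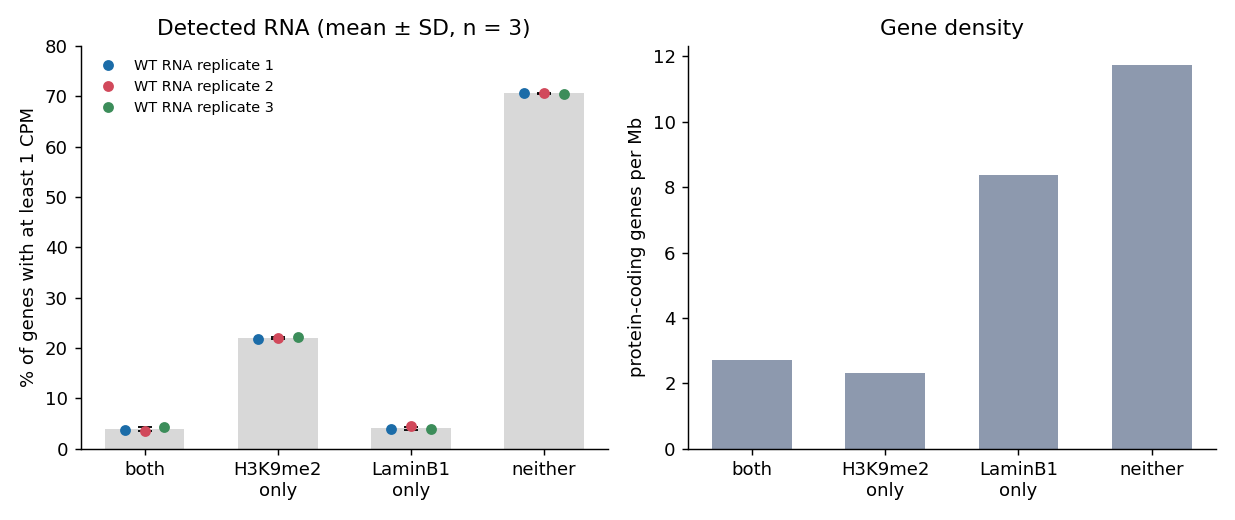
Left, percent of protein-coding genes with at least 1 CPM in each WT RNA library (points) by class of gene, with the mean as a bar and the SD (n = 3). Right, protein-coding genes per Mb in the same 4 classes. RNA is seen for under 5% of genes in both classes with LaminB1, while LaminB1 only is several times denser in genes than both.

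A few genes had RNA with their whole body in LaminB1 and in all 3 H3K9me2 libraries. Of 589 such genes, 564 were matched to the count table, and 9, 8 and 10 reached 1 CPM. Fbxw17, an F-box protein, had the most, at 41.2, 44.9 and 37.8 CPM, steady over the libraries. Nudt16, a hydrolase of nucleoside diphosphates and RNA caps, had 15.1, 27.5 and 13.3 CPM. Hsd3b6, a steroid dehydrogenase with near-identical neighbours among which reads may be shared, had 4.79, 1.70 and 31.1 CPM, high in replicate 3 alone. Zfp558, a zinc-finger protein, had 2.63, 3.26 and 2.63 CPM. The promoters of Nudt16, Hsd3b6 and Zfp558 held 15, 3 and 22 CpG, beside the class median of 3.

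Most genes of FAP identity lay outside both domain types, as most genes did. Of 16, 15 were in neither, including Pdgfra, Ly6a, Cd34 and Pi16, and Mme, a membrane peptidase, was in H3K9me2 only. Mme was covered in replicates 1 and 3 and not in replicate 2, and had 35.1, 60.1 and 6.51 CPM. All 14 genes of the fibrosis and matrix list were in neither, such as Col1a1, at 1639, 1690 and 1203 CPM, and Col3a1, at 1605, 1678 and 608 CPM. Among all protein-coding genes 80.4% were in neither, which is the level to read these counts against. Of the 11802 genes at 1 CPM or more in WT RNA replicate 1, 11489 were in neither. In that library 14 of the 16 FAP genes reached 1 CPM.

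Of 13 myogenic regulators 11 (84.6%) were in neither, near the 80.4% of all genes. Among them were Myod1, at 4.97, 8.51 and 30.6 CPM, and Myog, at 31.0, 54.3 and 136 CPM. Pax7, the satellite cell factor, lay in LaminB1 only, over 93.8% of its body, and had 0, 0 and 1.07 CPM. Eya1, a coactivator of muscle precursors, lay in H3K9me2 only, wholly covered in 3 of 3 libraries, with 0.469, 0.709 and 1.46 CPM. The myogenic RNA was highest in the library labelled WT replicate 3, as were the myoblast markers Myod1 and Des (27.2, 31.6 and 108 CPM), whose part in the result was not tested.

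A group of neighbouring myosin genes was under H3K9me2 without LaminB1. Of 22 sarcomere genes 6 (27.3%) were in H3K9me2 only, 16 (72.7%) in neither and 0 under LaminB1, beside 4.45%, 80.4% and 15.2% of all genes. Myh1, Myh2 and Myh4 of adult fast fibres and the perinatal Myh8, neighbours on chromosome 11, were wholly covered by H3K9me2 in 3 of 3 libraries and at 0% by LaminB1. Their RNA was low: Myh1 had 1.31, 3.12 and 10.0 CPM, and Myh2 was at 0 in all 3. The embryonic myosin Myh3, in the same list, was in neither and had 33.5, 44.5 and 88.9 CPM. The adult slow myosin Myh7, on chromosome 14, was in neither as well, with 0.938, 0.567 and 2.24 CPM. Actc1, an actin of heart and developing muscle, was wholly under H3K9me2 in 3 of 3 libraries, yet had 44.6, 49.3 and 119 CPM. Ttn, the giant spring protein of the sarcomere, had 73.9%, 71.8% and 0% of its body in H3K9me2 of replicates 1, 2 and 3.

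Of 16 adipogenic genes, 15 (93.8%) were in neither, beside 80.4% of all genes, including the fat regulators Pparg (29.9, 46.1 and 19.4 CPM), Cebpa, Cebpb and Cebpd. The exception was Ppargc1a, a coactivator of mitochondrial genes, which lay in H3K9me2 only, over 92.3%, 98.6% and 99.1% of its body. It had 1.41, 1.42 and 1.65 CPM.

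Of the 22 lists, which were chosen with earlier results of these data known, the neuronal one was most often in H3K9me2. Of 20, 9 were in both, 9 in H3K9me2 only, 0 in LaminB1 only and 2 in neither, beside 5.32%, 4.45%, 9.83% and 80.4% of all genes. Many genes of this list, such as Cntnap2 and Lrp1b, are far longer than the median span of 17.5 kb of all genes. All genes are thus not a like set, and the part of length was not tested. Grin2b, an NMDA receptor subunit, was wholly covered by LaminB1 and by H3K9me2 in 3 of 3 libraries, with 0.188, 0.142 and 0 CPM. Grin2a, of the same receptor, was under LaminB1 over 82.3% of its body. Gria2, an AMPA receptor subunit, was under H3K9me2 over 100%, 75.8% and 100% of its body and at 0% under LaminB1. Gria1 was under H3K9me2 over 100%, 100% and 39.7%, and had 5.63, 1.84 and 1.56 CPM. Some of the list straddled LaminB1 edges, such as Nrxn3, 46.7% of it in LaminB1, and Dscam, 43.9%.

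The remaining lists of tissues and functions lay mostly in neither, the hepatic one least. Of all genes 5.32% were in both, 4.45% in H3K9me2 only and 9.83% in LaminB1 only. The cell cycle and ribosome lists (16 genes each), the Hox genes (16) and the lamina genes (12) were all in neither, the class of 80.4% of all genes. Of 12 hepatic genes, 7 (58.3%) were in neither. Alb and Afp, neighbours on chromosome 5, were in H3K9me2 only, covered in replicates 1 and 2. Serpina1a, Cyp2e1 and Cyp3a11 were in LaminB1 only. Serpina1a and Cyp2e1 were also wholly under H3K9me2 of replicate 1, and of no other library. Of 11 haematopoietic and immune genes, Ikzf1, a lymphoid transcription factor, was in both and the other 10 in neither. Of 12 germline genes, Zp2, of the egg coat, was in H3K9me2 only and 11 in neither. Of 15 genes of H3K9 methylation and its readers, Kdm4c, a demethylase, was in H3K9me2 only, covered in replicates 1 and 3, and had 24.0, 44.7 and 35.7 CPM. The writers Ehmt1 (122, 98.4 and 125 CPM) and Ehmt2 (65.4, 53.6 and 38.6 CPM) were in neither.

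Gene families in clusters were spread unequally over the classes, beside 5.32% of all genes in both, 4.45% in H3K9me2 only, 9.83% in LaminB1 only and 80.4% in neither. Of 1104 olfactory receptors, 742 (67.2%) were in LaminB1 only, 146 (13.2%) in both, 81 in H3K9me2 only and 135 in neither. Of 354 vomeronasal receptors, 291 (82.2%) were in LaminB1 only. Vmn2r1, Vmn2r2 and Vmn2r3 belonged to the 28 in both. Of 57 clustered protocadherins, adhesion proteins of neurons, 35 were in LaminB1 only and 0 under H3K9me2, with Pcdha1 covered by LaminB1 over 81.4%. Over the whole list, with the 22 in neither, 34, 35 and 32 of 56 matched genes reached 1 CPM, beside 58.5%, 58.6% and 58.4% of all genes. Pcdha1 itself had 0, 0.284 and 0 CPM. Members share exons, so that reads cannot be assigned with certainty. Of 53 keratins, 33 (62.3%) were in H3K9me2 only, 20 in neither and 0 under LaminB1. Of 80 cytochrome P450 genes, 36 (45%) were in LaminB1 only and 10 (12.5%) in both, among them Cyp2j12 and Cyp2j13. Of 62 serpins, protease inhibitors, 19 (30.6%) were in both, including Serpinb13, 8 in H3K9me2 only and 4 in LaminB1 only. Of 42 defensins, 15 were in LaminB1 only and 10 (23.8%) in both, and of 388 zinc-finger genes named Zfp, 342 (88.1%) were in neither. The members of a cluster share one or a few domains and are not independent of each other.

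Set against the same WT LaminB1 list, H3K9me2 of Prdm16 FAPs lay inside it by 49.8%, 39.7% and 35.1% of length, against 51.0%, 46.8% and 51.5% in WT FAPs. The means were 41.5 ± 7.55% in Prdm16 and 49.8 ± 2.60% in WT (SD, n = 3 each), a difference of -8.27 percentage points (exact two-sided permutation p = 0.2, where 0.1 is the smallest possible). The ranges overlapped, at Prdm16 replicate 1 and WT replicate 2. The difference was -3.19 (exact p = 0.4) over LaminB1 called in both genotypes. It was -5.04 without Prdm16 replicate 3 and -12.4 without Prdm16 replicate 1 (exact permutation p = 0.3 and 0.1). Against the smaller LaminB1 list of Prdm16 FAPs (305 Mb), H3K9me2 of Prdm16 FAPs had ratios of observed to expected overlap of 1.81, 1.05 and 1.05.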

How the data were processed

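Domains were mapped by chromatin immunoprecipitation from cross-linked, sonicated FAP chromatin, and RNA was sequenced, per the labels' protocols. Per the submitters' processing notes, the tools were DESeq2 1.20, featureCounts, STAR 2.7 and Bowtie 1.2.2, with the builds GRCm38, mm10 and dm6. The role of each, and the domain caller, were not given in the sources used here. Each deposited domain list held intervals and the authors' score per domain, 1 library per list. The deposited RNA table held raw counts per gene. The members, gene lists and tests were chosen with earlier results of these data known. The title of the LaminB1 sample spells it LamininB1, while its antibody label reads LaminB1.

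Intervals were handled in 1-kb bins with pandas 2.3.3, numpy 2.4.6 and scipy 1.17.1 under Python 3.11.15 (figures: matplotlib 3.10.9). The interval functions were tested on simulated lists. Expected overlap was the product of both covered shares on each autosome, summed, which equals the mean over shuffled placements, and the chromosome's length was taken as the furthest end of a RefSeq gene or domain. Ratios over 3 libraries were tested by exact sign-flip, and genotypes by exact permutation, each two-sided with a threshold of 0.05.

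Genes were the 20665 autosomal protein-coding genes of RefSeq GRCm38.p6. Of these, 20160 matched the counts, 19787 by symbol and 373 by synonym, and 16457 had a promoter sequence. Exon lengths and a genome were not used here, so levels were not compared between genes. In their place the share of genes with at least 1 CPM was used, gene density was taken by gene midpoint, and base composition from promoters. CPM was computed from each library's total count. Reads of near-identical genes and of overlapping genes cannot be told apart.

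Genes named were the first 4 classed members of each list, all list members in a class other than neither where few, the 8 with most RNA wholly in both, and genes of the 5 longest runs of each kind. A few further list members were chosen after their values were seen. The genotype comparison was made without a replicate block, and with one as an alternative.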

Additional observations from a re-analysis of the deposited data

How the results depend on the processing

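No recomputed result changed its sign, and none of the tests could reach 0.05 with these sample numbers. The exception in direction against placement was nested H3K9me2, below expectation for whole domains and above it at 0.9. Among domains at or above the median score of their own list, H3K9me2 lay 41.8% inside LaminB1, 32.2% of LaminB1 domains were nested and 3.50% of H3K9me2 domains. With only H3K9me2 limited in this way (added after seeing the data) the share inside was 52.6% and the nested H3K9me2 3.63%. With chromosome X the share inside was 46.9%. Counting at least 0.9 of a domain as nested gave 21.6% of H3K9me2 domains, and at least 0.5 gave 45.6%, with 67.2% of LaminB1 domains. The length ratio of H3K9me2 domains touching LaminB1 was 1.35 at that share. The boundary ratio ranged up to 0.566, at the median score.

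The RNA difference of both minus neither, in percentage points, was -67.7 with any 1 H3K9me2 library sufficing, -67.5 by gene start and -47.6 among genes with at least 10 counts. It was -59.8 at 5 CPM, -63.7 at 0.1 CPM and -63.4 at 0.1 CPM per kb of gene span, 3 settings added after seeing the data. Gene density in both was 3.13 per Mb with all 3 libraries required and 3.09 with any 1, and its promoters had a median of 2 CpG with any 1. The pseudocount alternative was not run, since no log level was used.

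Leaving out each library in turn gave overlap ratios of 1.86 to 1.95, boundary ratios of 0.376 to 0.412, shares of H3K9me2 inside LaminB1 of 48.9% to 51.3%, shares of LaminB1 inside H3K9me2 of 51.3% to 65.8%, nested LaminB1 of 40.9% to 53.6%, nested H3K9me2 of 6.33% to 7.95%, RNA differences of -67.0 to -66.5 and genotype differences of -12.4 to -5.04. With the replicate block the genotype difference was -8.27 (exact p = 0.25). Deviations of same-numbered libraries had correlations of -0.159, -0.385 and 0.0979 for replicates 1, 2 and 3. Of the Prdm16 libraries, only replicate 3 correlated best with the WT library of its own number. With 3 libraries per genotype, these values cannot show whether same-numbered libraries share more than a number. H3K9me2 and LaminB1 shared only replicate number 1, so pairing them was not possible. The depth of the domain libraries is unknown, which limits what domain edges and absent domains can show, and the single LaminB1 library leaves its own error unmeasured.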
